A study of Arabidopsis thaliana with 20 samples.

Results

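Gene expression was compared between *Δdella* and WT (Col-0) Arabidopsis seeds that had both been kept for 20 hr on medium with *PAO1* extract. These are 4 of the 20 RNA-seq libraries of the series, the 2 replicates of *Δdella* seeds on extract and the 2 replicates of WT seeds on extract, defined by genotype and medium. The comparison and the gene lists were chosen with earlier results of these data known. *Δdella* seeds carry mutant alleles of RGL2, RGA, GAI, RGL1 and RGL3, the 5 DELLA genes of Arabidopsis, in the Col-0 background. The extract is the lyophilised, bacteria-free medium in which *Pseudomonas aeruginosa* strain *PAO1* had grown, used at 0.7 mg/ml. The other 8 groups are the same genotypes after the same 20 hr on germination medium alone (MS), on 5 µM paclobutrazol (PAC), an inhibitor of gibberellin (GA) synthesis, on PAC with 10 µM GA, and on extract with 10 µM GA. They serve here only to show which differences between the genotypes were also present on other media. Seeds of both genotypes came from plants grown side by side and harvested on the same day, and *Δdella* is a single mutant line.

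DELLA proteins are nuclear repressors of GA responses. GA bound to its GID1 receptors leads to their destruction, and in seeds RGL2 is the DELLA best known for blocking germination when GA is low. Abscisic acid (ABA), acting through the transcription factors ABI3 and ABI5, keeps genes of late embryo development active in such arrested seeds, among them those of storage proteins and of late embryogenesis abundant (LEA) proteins. The comparison asks which genes differ in seeds exposed to the extract when the DELLA genes are mutated.

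The deposited table gives 1 FPKM value (sequenced fragments scaled to transcript length and to library size) for each of 33557 genes in each of the 10 groups, with the 2 replicates of a group pooled by the authors. The values of single replicates are not used here, and the test results in the deposited table are the authors' own comparisons and are set aside. From the pooled values alone no SD and no test can be computed, so the differences below are not set against the spread between replicates. Depth in reads is unknown. The summed FPKM of the groups ranged from 882351 to 988764, and the number of genes with a listed value of 0 from 12095 to 12791. Differences are given as log2((FPKM in *Δdella* + 1)/(FPKM in WT + 1)), which understates those of low genes. A gene was considered when it had at least 1 FPKM in 1 of the 2 groups, and it was called higher or lower in *Δdella* seeds at a difference of 2-fold on this scale. As RNA came from whole seeds, fewer cells of a type and less RNA per cell cannot be told apart.

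All 5 mutated DELLA genes had less RNA in *Δdella* seeds, as the genotype label implies. RGL2 had 4.22 FPKM in *Δdella* and 178 FPKM in WT seeds on extract, a log2 difference of −5.10. GAI had 10.2 FPKM in *Δdella* and 77.7 FPKM in WT seeds, RGL3 14.9 FPKM in *Δdella* and 89.1 FPKM in WT seeds, RGA 23.1 FPKM in *Δdella* and 88.7 FPKM in WT seeds, and RGL1 0.728 FPKM in *Δdella* and 4.58 FPKM in WT seeds, with log2 differences of −2.81, −2.50, −1.90 and −1.69. On every one of the 5 media the *Δdella* value of each was below every WT value. RNA of these genes was still counted in *Δdella* seeds, and the FPKM values do not say from which side of the mutations it came.

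In *Δdella* seeds on extract, 723 genes were higher (4.22% of 17144 considered) and 391 genes were lower (2.28%). With at least 5 FPKM required in 1 group 469 genes were higher, and 595 genes were lower with a pseudocount of 0.1 in place of 1. At 4-fold the counts were 142 genes higher (0.828%) and 115 lower (0.671%). The median of all genes considered was −0.02 on the log2 scale, with quartiles of −0.21 and 0.20. With no replicate values, the nearest yardstick is the difference between *Δdella* groups on MS, PAC, and PAC with GA, which includes any effect of the medium. Of the genes considered, 0.794% differed by 2-fold in either direction between PAC and MS, 0.741% between PAC with GA and MS, and 0.806% between PAC with GA and PAC, against 6.5% between genotypes on extract.

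**Figure D1:**
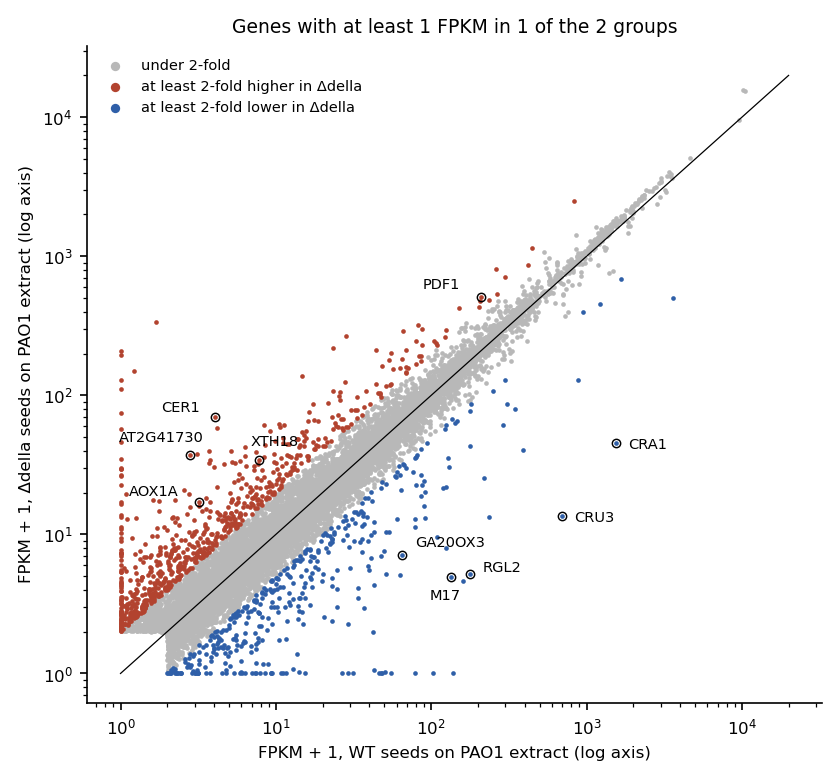
FPKM + 1 of each gene considered in *Δdella* seeds (vertical log axis) against WT seeds (horizontal log axis), both on *PAO1* extract, 1 pooled value per group, with genes at least 2-fold higher in *Δdella* in red and those lower in blue. Most points lie near the diagonal, with the cruciferin genes CRU3 and CRA1 and the mutated gene RGL2 far below it and CER1 far above it.

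Very short genes were called far more often than longer ones. Of 178 genes under 300 bases that were considered, 83 were called in either direction (46.6%), against 6.08% of longer genes. Of the 12 largest differences towards higher values in *Δdella* seeds, 10 were genes under 300 bases, and 10 were listed at 0 in 1 group. Of the 12 largest towards lower values, 7 were under 300 bases. Among genes of 300 bases or more, 680 were higher (4.01%) and 351 lower (2.07%), and among protein-coding genes of that length 658 were higher (3.98%) and 329 lower (1.99%).

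The genes with the lowest *Δdella* values relative to WT included the 2 main cruciferins, 12S globulins laid down in the embryo as a nitrogen store. CRU3 (chr4:14087556-14089796, TAIR10) had 12.5 FPKM in *Δdella* seeds on extract and 690.0 FPKM in WT seeds, a log2 difference of −5.67. CRA1 (chr5:17756264-17758288) had 44.8 FPKM in *Δdella* and 1544 FPKM in WT seeds, a log2 difference of −5.08. Both cruciferin RNAs were thus abundant in WT seeds on extract and far lower in *Δdella* seeds.

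The stretches upstream of genes that carry the comparison are shown here because 2 short motifs tied to seed ABA responses can be looked for in them. ACGTG, or CACGT on the other strand, is the core of the ABA-response element, and CATGCA, or TGCATG, is the core of the RY repeat bound by B3 factors such as ABI3. Each is the 300 bases before the gene start in RefSeq (assembly TAIR10.1), in lower case and 5′ to 3′ along the gene's strand, with matches to the motifs in capitals. CRU3 is at chr4:14087256-14087555 (+), SESA5 at chr5:22239188-22239487 (−), OLEO1 at chr4:12900130-12900429 (+), GA20OX3 at chr5:2245340-2245639 (−) and CER1 at chr1:418116-418415 (+). CRU3, SESA5 and OLEO1 stand for 3 classes of seed reserve genes and GA20OX3 for GA synthesis. CER1 is 1 of the genes higher in *Δdella* seeds, of whose windows 4.6% hold both motifs, against 2.64% for all genes considered. RefSeq starts CER1 at position 418416 and the file starts it at 418748, so its window does not adjoin the gene as the file places it. Some windows not shown hold few or no matches. That of CRA1 holds 2 CATGCA and no ACGTG, and those of M17 and of the cell wall gene XTH23 hold neither. RefSeq starts CRA1, M17 and XTH23 upstream of the file's starts, so these windows do not adjoin the genes as the file places them either.
CRU3: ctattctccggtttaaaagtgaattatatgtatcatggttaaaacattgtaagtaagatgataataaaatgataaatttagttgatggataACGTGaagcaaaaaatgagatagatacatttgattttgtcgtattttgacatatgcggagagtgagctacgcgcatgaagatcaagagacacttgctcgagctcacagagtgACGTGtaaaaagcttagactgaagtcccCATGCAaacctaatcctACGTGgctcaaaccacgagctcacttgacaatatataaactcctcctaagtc
SESA5: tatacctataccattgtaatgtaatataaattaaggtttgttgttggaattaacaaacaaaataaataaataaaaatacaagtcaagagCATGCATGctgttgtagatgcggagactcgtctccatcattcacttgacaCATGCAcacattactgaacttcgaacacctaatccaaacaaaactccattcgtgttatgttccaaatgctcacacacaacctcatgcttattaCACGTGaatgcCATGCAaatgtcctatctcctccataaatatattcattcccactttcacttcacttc
OLEO1: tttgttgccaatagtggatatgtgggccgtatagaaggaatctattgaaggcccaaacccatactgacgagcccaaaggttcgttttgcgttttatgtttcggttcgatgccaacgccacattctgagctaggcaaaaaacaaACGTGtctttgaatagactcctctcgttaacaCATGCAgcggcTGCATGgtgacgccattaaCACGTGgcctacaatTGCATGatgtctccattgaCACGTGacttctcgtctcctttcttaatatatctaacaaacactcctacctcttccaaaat
GA20OX3: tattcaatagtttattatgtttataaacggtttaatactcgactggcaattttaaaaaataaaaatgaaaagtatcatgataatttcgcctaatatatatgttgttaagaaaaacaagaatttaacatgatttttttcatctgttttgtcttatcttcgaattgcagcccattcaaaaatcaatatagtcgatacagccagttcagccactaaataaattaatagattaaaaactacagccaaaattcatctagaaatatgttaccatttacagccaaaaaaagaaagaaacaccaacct
CER1: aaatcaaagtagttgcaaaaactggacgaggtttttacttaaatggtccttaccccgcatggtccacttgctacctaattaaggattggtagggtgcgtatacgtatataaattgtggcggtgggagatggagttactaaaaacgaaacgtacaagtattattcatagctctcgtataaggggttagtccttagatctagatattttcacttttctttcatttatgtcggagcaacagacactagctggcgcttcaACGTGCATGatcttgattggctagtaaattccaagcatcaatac
The CRU3 window holds 3 ACGTG cores and 1 CATGCA, that of SESA5 2 and 4, that of OLEO1 5 and 3, and that of CER1 1 of each, which overlap by their shared letters. Palindromic CACGTG holds the core on both strands and CATGCATG holds the RY core on both, and each is then counted on each strand. The GA20OX3 window holds neither.

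Across genes, the RY core was more frequent upstream of genes lower in *Δdella* seeds on extract than upstream of genes in general. CATGCA was found in 83 of 387 windows of the lower genes (21.4%), in 101 of 717 windows of the higher genes (14.1%), and in 1530 of 17084 windows of all genes considered (8.96%). The ACGTG core was found in 148 windows of the lower genes (38.2%), in 227 of the higher genes (31.7%), and in 4434 of all (26%). Both stood together in 44 windows of the lower genes (11.4%), in 33 of the higher genes (4.6%) and in 451 of all (2.64%). Of the 16 considered storage protein and oil body genes described below, 15 had CATGCA (93.8%) and 10 had ACGTG (62.5%). A match is a description of the letters and does not show that a factor binds there. Of matched nuclear genes, 27.4% had the same start and end in RefSeq as in the file, so a window may not adjoin the gene as the file places it.

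The cruciferin list has 4 genes, and 3 of them were called lower in *Δdella* seeds on extract, with a list median of −4.06. Besides CRU3 and CRA1, CRB had 3.12 FPKM in *Δdella* and 32.8 FPKM in WT seeds, a log2 difference of −3.03. CRU4 was low in both, with 0.265 FPKM in *Δdella* and 1.38 FPKM in WT seeds. Summed over the list, cruciferin RNA was 60.7 FPKM in *Δdella* seeds on extract against 2269 FPKM in WT seeds. Over the 5 media that sum lay between 29.3 and 78.6 FPKM in *Δdella* seeds and between 280.5 and 7943 FPKM in WT seeds, so the sums of the genotypes did not overlap.

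Between media, the WT level of CRU3 varied more widely than the *Δdella* level. On MS, CRU3 had 12.6 FPKM in *Δdella* and 175 FPKM in WT seeds. On PAC it had 14.4 FPKM in *Δdella* and 2639 FPKM in WT seeds, and on PAC with GA 6.55 FPKM in *Δdella* and 344 FPKM in WT seeds. On extract with GA it had 18.7 FPKM in *Δdella* and 63.4 FPKM in WT seeds. Each *Δdella* value was thus below each WT value, with the widest distance on PAC and the narrowest on extract with GA. The list median followed the same order, at −3.08 on MS, −5.37 on PAC, −3.70 on PAC with GA and −1.29 on extract with GA.

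All 5 genes of the 2S albumins, small sulfur-rich storage proteins named SESA1 to SESA5, were called lower in *Δdella* seeds on extract, with a median of −2.11. SESA5 (chr5:22238358-22239187) stood out, with 12.3 FPKM in *Δdella* and 235 FPKM in WT seeds, a log2 difference of −4.15. SESA3, the most abundant of them, had 60.4 FPKM in *Δdella* and 289 FPKM in WT seeds. SESA1 had 8.0 FPKM in *Δdella* and 38.0 FPKM in WT seeds, SESA4 8.23 FPKM in *Δdella* and 34.7 FPKM in WT seeds, and SESA2 24.7 FPKM in *Δdella* and 58.8 FPKM in WT seeds, with log2 differences of −2.11, −1.95 and −1.22. SESA1 to SESA4 are neighbours on chromosome 4 and alike in sequence, so reads may be split among them. Over the 5 media the genotypes did not overlap for SESA1, SESA3 and SESA5, and did for SESA2 and SESA4. PAP85, which encodes a vicilin-like storage protein, had 7.04 FPKM in *Δdella* and 123 FPKM in WT seeds on extract, a log2 difference of −3.95.

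Of 7 oil body genes considered, 6 were called lower in *Δdella* seeds on extract, with a median of −1.98. Oleosins coat the droplets in which seeds keep their oil, and caleosins are calcium-binding proteins of the same droplets. OLEO1 had 24.5 FPKM in *Δdella* and 218 FPKM in WT seeds, a log2 difference of −3.10, and OLEO4 had 6.61 FPKM in *Δdella* and 48.4 FPKM in WT seeds, a difference of −2.70. The OLEO1 locus in the file overlaps another gene, so reads there may be shared. OLEO5, the member with the highest level in *Δdella* seeds, had 67.0 FPKM in *Δdella* and 136 FPKM in WT seeds. OLEO2 had 27.0 FPKM in *Δdella* and 75.5 FPKM in WT seeds. The caleosins CLO1 and CLO2 had 3.66 and 2.77 FPKM in *Δdella* seeds against 18.8 and 13.8 FPKM in WT seeds. OLEO3 was not called, with 12.1 FPKM in *Δdella* and 12.9 FPKM in WT seeds. On extract with GA the list median was −0.29, and CLO2 had 3.56 FPKM in *Δdella* and 3.11 FPKM in WT seeds, the one medium on which this gene was not lower in *Δdella*.

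**Figure D2:**
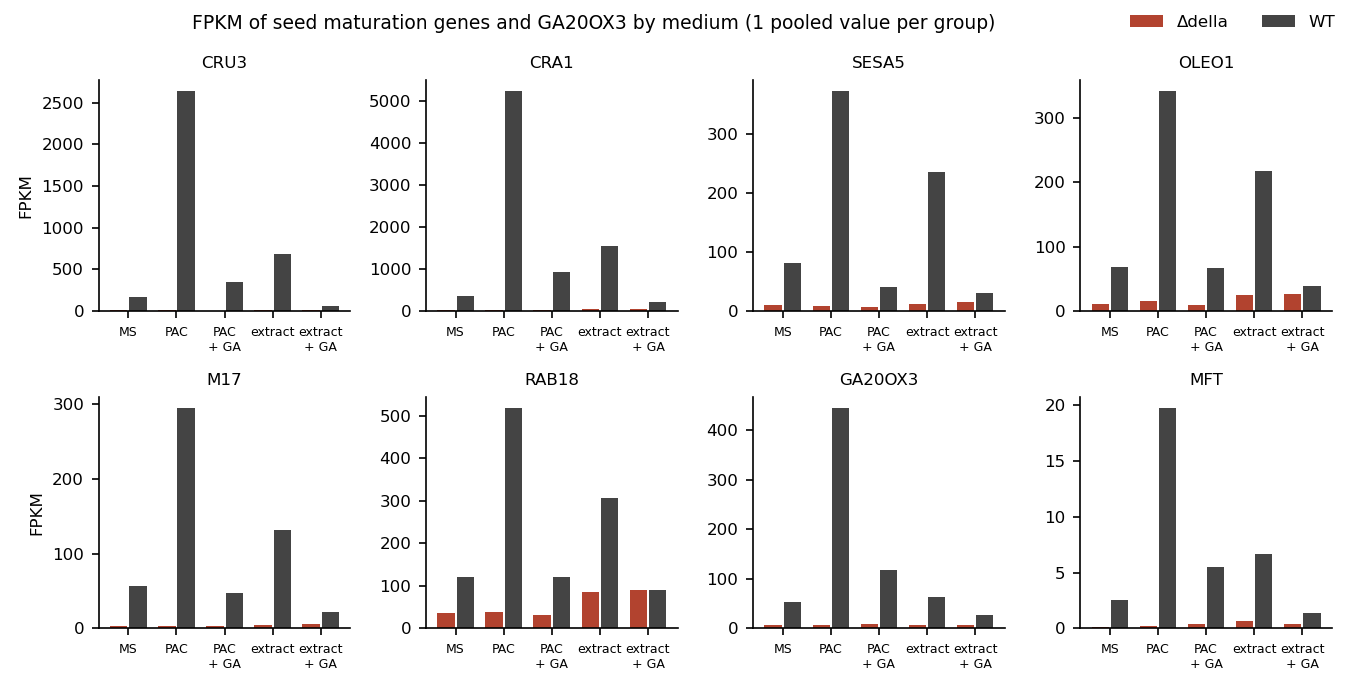
FPKM (vertical linear axes from 0, scaled per gene) of 8 genes lower in *Δdella* seeds on extract, with bars for *Δdella* (left) and WT (right) on MS, PAC, PAC with GA, extract, and extract with GA, 1 pooled value per bar. WT bars differ widely between media, with CRU3 at 2639 FPKM on PAC and 63.4 FPKM on extract with GA, while *Δdella* bars for CRU3 stay between 6.55 and 18.7 FPKM.

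LEA proteins and dehydrins, which protect dry cells, differed in both directions. Of 17 genes, 5 were called lower and 2 higher in *Δdella* seeds on extract, against 2.28% and 4.22% of all genes considered. The list median was −0.01. M17 had 3.96 FPKM in *Δdella* and 132 FPKM in WT seeds, a log2 difference of −4.75, and its neighbour M10 had 8.64 FPKM in *Δdella* and 107 FPKM in WT seeds, a difference of −3.49. EM6 and EM1, group 1 LEA genes that ABI5 is known to activate, had 34.2 and 19.8 FPKM in *Δdella* seeds against 128 and 63.0 FPKM in WT seeds. The dehydrin gene RAB18, a common ABA marker, had 86.2 FPKM in *Δdella* and 306 FPKM in WT seeds, a log2 difference of −1.82. On extract with GA, RAB18 had 89.0 FPKM in *Δdella* and 90.0 FPKM in WT seeds, and EM6 33.9 FPKM in *Δdella* and 36.7 FPKM in WT seeds. There M17 and M10 kept log2 differences of −1.61 and −1.40. EM6 and EM1 overlapped between the genotypes over the 5 media. AT3G02480 and LEA7 were the 2 genes called higher in *Δdella* seeds on extract. AT3G02480 had 807 FPKM in *Δdella* and 261 FPKM in WT seeds, and LEA7 had 713 FPKM in *Δdella* and 298 FPKM in WT seeds, with log2 differences of 1.62 and 1.26. Both were also higher in *Δdella* seeds on MS, where AT3G02480 had 419 FPKM in *Δdella* and 159.9 FPKM in WT seeds.

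Other genes of the maturing seed were among the largest differences. TIP3;1 and TIP3;2, seed-specific aquaporins of the protein storage vacuole, had 3.35 and 1.27 FPKM in *Δdella* seeds on extract against 41.8 and 28.0 FPKM in WT seeds, log2 differences of −3.30 and −3.67. AtMT4b, a metallothionein gene, had 4.07 FPKM in *Δdella* and 62.3 FPKM in WT seeds. ATECP31, a LEA gene outside the list, had 1.96 FPKM in *Δdella* and 35.9 FPKM in WT seeds. Both had a log2 difference of −3.64 and, like PAP85, a difference of less than 2-fold on extract with GA. Of 4 seed heat shock genes considered, 1 was called lower, against 2.28% of all genes considered. It was HSP17.4, with 12.4 FPKM in *Δdella* and 37.4 FPKM in WT seeds. Its values overlapped between the genotypes over the 5 media. The loci of TIP3;2 and HSP17.4 in the file overlap other genes, as do those of LEA7, MFT and PIF1, so that reads there may be shared.

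Among the regulators of seed maturation and dormancy, 1 of the 9 considered was called lower in *Δdella* seeds on extract, against 2.28% of all genes considered. None was called higher, and the median was −0.39. The gene called was MFT, a regulator of germination that ABA and GA both control, with 0.677 FPKM in *Δdella* and 6.63 FPKM in WT seeds, a log2 difference of −2.19. It too was below WT on all 5 media, with 0.198 FPKM in *Δdella* and 19.7 FPKM in WT seeds on PAC. ABI3 had 79.8 FPKM in *Δdella* and 118 FPKM in WT seeds, SOM, a repressor of germination in the dark, had 87.4 FPKM in *Δdella* and 129.9 FPKM in WT seeds, and PIF1, the light-labile factor upstream of SOM, had 57.2 FPKM in *Δdella* and 78.7 FPKM in WT seeds. These 3 stayed short of 2-fold on extract, and for each the *Δdella* values lay below the WT values on all 5 media. With MFT, 4 of the 9 regulators considered had no such overlap, against 18.4% of all genes considered. ABI5 RNA was nearly equal, with 43.9 FPKM in *Δdella* and 44.7 FPKM in WT seeds, and ABI4 had 144 FPKM in *Δdella* and 128 FPKM in WT seeds. EEL had 5.33 FPKM in *Δdella* and 7.29 FPKM in WT seeds, SPT 45.1 FPKM in *Δdella* and 46.3 FPKM in WT seeds, and DAG1 1.97 FPKM in *Δdella* and 2.05 FPKM in WT seeds. DOG1, FUS3, LEC1, LEC2, L1L and BZIP67, which act earlier in seed development or in dormancy, were under 1 FPKM in both genotypes on extract.

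Marker genes of seed tissues were set beside these groups. Of 3 endosperm markers, 2 were considered, and their list summed to 571 FPKM in *Δdella* seeds on extract and 1324 FPKM in WT seeds, with ranges over the 5 media of 443 to 571 FPKM in *Δdella* and 745 to 1324 FPKM in WT seeds. That difference came from EPR1, with 451 FPKM in *Δdella* and 1226 FPKM in WT seeds, while MAN7 had 118 FPKM in *Δdella* and 96.3 FPKM in WT seeds and NCED6 was under 1 FPKM in both. The 3 embryo epidermis markers summed to 643 FPKM in *Δdella* and 345 FPKM in WT seeds on extract, with ranges of 632 to 701 FPKM in *Δdella* and 226 to 411 FPKM in WT seeds. PDF1 accounted for it, with 505 FPKM in *Δdella* and 207 FPKM in WT seeds, while ATML1 had 61.0 FPKM in *Δdella* and 50.7 FPKM in WT seeds and PDF2 had 76.4 FPKM in *Δdella* and 87.9 FPKM in WT seeds. Of 3 seed coat markers, 1 was considered, with a log2 difference of 0.85. The seed coat list summed to 16.1 FPKM in *Δdella* and 8.66 FPKM in WT seeds, with TT10 listed at 0 in both. The meristem list summed to 9.89 FPKM in *Δdella* and 10.2 FPKM in WT seeds, and the root hair list to 10.7 FPKM in *Δdella* and 10.6 FPKM in WT seeds, with EXPA7 and EXPA18 at 0 in both. The part of tissue make-up in the differences between genotypes was not tested.

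The GA 20-oxidase genes GA20OX1, GA20OX2 and GA20OX3 were lower in *Δdella* seeds. The GA 20-oxidases make the precursors of active GA, and 3 of them were the only genes called among 9 of the 14 synthesis genes that were considered. GA20OX3 (chr5:2243553-2245339) had 6.12 FPKM in *Δdella* and 64.1 FPKM in WT seeds on extract, a log2 difference of −3.19. GA20OX2 had 0.226 FPKM in *Δdella* and 5.00 FPKM in WT seeds, and GA20OX1 had 2.48 FPKM in *Δdella* and 9.53 FPKM in WT seeds, differences of −2.29 and −1.60. All 3 were below WT on all 5 media. For GA20OX3 the *Δdella* values lay between 6.12 and 8.06 FPKM on the 5 media, against WT values of 53.7 FPKM on MS, 444 FPKM on PAC, 117 FPKM on PAC with GA, 64.1 FPKM on extract and 27.8 FPKM on extract with GA.

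The 3-oxidases, which make active GA, did not share this difference on extract. GA3OX1 had 13.4 FPKM in *Δdella* and 13.9 FPKM in WT seeds, and GA3OX2 had 109.9 FPKM in *Δdella* and 101 FPKM in WT seeds. Neither was called on extract, while on PAC GA3OX1 had 21.6 FPKM in *Δdella* and 93.9 FPKM in WT seeds. None of the 5 genes of GA perception and none of the 2 considered GA-inactivating genes was called, against 6.5% of all genes considered. The receptor gene GID1A had 15.6 FPKM in *Δdella* and 20.3 FPKM in WT seeds, and GA2OX2, a GA 2-oxidase, had 2.96 FPKM in *Δdella* and 1.60 FPKM in WT seeds.

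A list of genes known to be induced by DELLA proteins in seedlings had 11 of 13 members considered, with a median of −0.39. On extract 2 of the 11 were called lower, against 2.28% of all genes considered, and none higher. GA20OX2 belongs to this list as well, and the other was AT4G19700, with 17.41 FPKM in *Δdella* and 36.2 FPKM in WT seeds, a log2 difference of −1.02 that became −0.99 on scaling by the median ratio. LBD40, XERICO and SCL3 had 92.4, 7.84 and 5.48 FPKM in *Δdella* seeds against 177, 16.4 and 9.81 FPKM in WT seeds, short of 2-fold on the log2 scale used. On all 5 media, 7 of the 11 had *Δdella* values below all WT values, against 18.4% of all genes considered.

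Genes of ABA metabolism and of early ABA signalling were not called on extract. None of 6 ABA synthesis genes, 3 ABA breakdown genes and 8 clade A PP2C genes reached 2-fold, with medians of −0.05, 0.70 and −0.12. Of all genes considered 6.5% were called, so the lack of calls in lists this short says little. All 3 breakdown genes had a difference above 0. The breakdown genes CYP707A2 and CYP707A3, ABA 8′-hydroxylases, had 17.7 and 11.1 FPKM in *Δdella* seeds against 10.5 and 5.57 FPKM in WT seeds. The PP2C phosphatases are negative regulators of ABA signalling, and 7 of the 8 had a difference below 0, as did 9099 of the 17144 genes considered.

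The cell wall genes of the XTH family made up the clearest group in the higher direction. XTHs cut and rejoin xyloglucan, the polymer that ties cellulose fibrils together, and are linked to wall loosening and growth. Of 16 genes considered, 10 were called higher and 1 lower in *Δdella* seeds on extract, with a median of 1.5, the only list median of 1 or more among 30 lists. XTH23 had 12.2 FPKM in *Δdella* and 1.31 FPKM in WT seeds, a log2 difference of 2.52. XTH18 and XTH17, close relatives whose reads may be shared, had 33.2 and 9.48 FPKM in *Δdella* seeds against 6.80 and 1.77 FPKM in WT seeds. XTH15 had 202 FPKM in *Δdella* and 54.2 FPKM in WT seeds, and XTH16 had 209.9 FPKM in *Δdella* and 67.5 FPKM in WT seeds. XTH4, XTH5, XTH24, XTH30 and XTH33 were called as well, with 97.1, 231, 4.098, 4.02 and 24.4 FPKM in *Δdella* seeds and 32.4, 108, 0.802, 0.788 and 6.59 FPKM in WT seeds.

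Not every XTH gene followed. XTH25 was lower, with 1.5 FPKM in *Δdella* and 7.88 FPKM in WT seeds, and XTH31, the most abundant member in WT seeds, had 667 FPKM in *Δdella* and 754 FPKM in WT seeds. On all 5 media, 12 of the 16 had *Δdella* values above all WT values, against 18.4% of all genes. The XTH list median was 1.59 on MS, 3.11 on PAC, 1.87 on PAC with GA and 0.77 on extract with GA. Upstream of these 16 genes, 3 windows held CATGCA (18.8%) and 2 held ACGTG (12.5%).

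**Figure D3:**
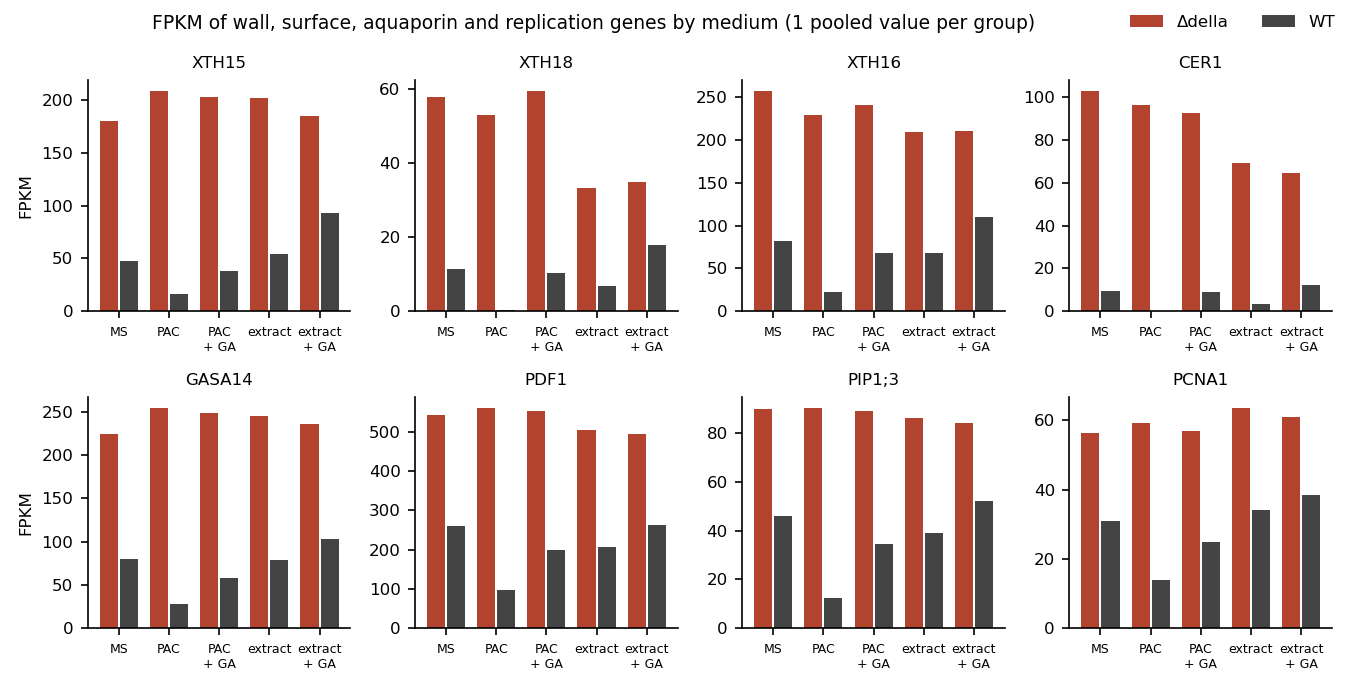
FPKM (vertical linear axes from 0, scaled per gene) of 8 genes with higher values in *Δdella* seeds on extract, with bars for *Δdella* (left) and WT (right) on MS, PAC, PAC with GA, extract, and extract with GA, 1 pooled value per bar. Each *Δdella* bar exceeds each WT bar of the same gene, with CER1 at 69.4 FPKM in *Δdella* and 3.08 FPKM in WT seeds on extract.

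Alpha-expansins, which loosen walls without cutting them, differed in both directions. Of 12 considered, 2 were higher and 1 lower, against 4.22% and 2.28% of all genes considered, with a median of −0.13. The 2 higher genes were low throughout, EXPA6 with 3.13 FPKM in *Δdella* and 0.949 FPKM in WT seeds and EXPA11 with 1.28 FPKM in *Δdella* and 0.123 FPKM in WT seeds. The call of EXPA11 ended at an equal FPKM sum, with a log2 difference of 0.98. EXPA10 was lower, with 681 FPKM in *Δdella* and 1661 FPKM in WT seeds, and it was below WT on all 5 media. The abundant EXPA2, an expansin of the germinating endosperm, had 1656 FPKM in *Δdella* and 1907 FPKM in WT seeds, and EXPA1 had 1459 FPKM in *Δdella* and 1861 FPKM in WT seeds. Of 3 mannanase genes considered none was called, against 6.5% of all genes considered, and MAN7 is given above.

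CER1, an enzyme of wax alkane synthesis in the epidermis, was the cuticle gene with the widest difference. It had 69.4 FPKM in *Δdella* and 3.08 FPKM in WT seeds on extract, a log2 difference of 4.11. On MS it had 103 FPKM in *Δdella* and 9.33 FPKM in WT seeds, and on PAC 96.4 FPKM in *Δdella* and 0.16 FPKM in WT seeds. None of the other 9 cuticle genes considered was called on extract, against 6.5% of all genes considered, and the list median was 0.14. Of the 3 epidermis markers, given above, PDF1 was called higher in *Δdella* seeds, and ATML1 and PDF2 were not called.

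Genes of growing cells were mostly somewhat higher in *Δdella* seeds without reaching 2-fold. Of all genes considered, 4.22% were called higher. All 11 DNA replication genes had a difference above 0, as did 8045 of the 17144 genes considered, with a median of 0.72 and none called. Of them, 10 were above all WT values on the 5 media, against 18.4% of all genes. PCNA1, the sliding clamp of DNA polymerase, had 63.5 FPKM in *Δdella* and 34.2 FPKM in WT seeds, MCM3, a subunit of the replicative helicase, had 18.0 FPKM in *Δdella* and 9.39 FPKM in WT seeds, and RNR1, which makes deoxyribonucleotides, had 39.6 FPKM in *Δdella* and 36.1 FPKM in WT seeds. All 9 beta-tubulins had a difference above 0, with a median of 0.55. Of these TUB7 was called, with 103 FPKM in *Δdella* and 44.7 FPKM in WT seeds, while TUB4 had 307 FPKM in *Δdella* and 157 FPKM in WT seeds. The 8 genes of primary wall cellulose synthesis had a median of 0.39 and none was called, and 6 of them were above all WT values on the 5 media, against 18.4% of all genes.

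Plasma membrane aquaporins, which let water into expanding cells, had a median of 0.62 over 10 genes. PIP1;3 was the one called, with 86.1 FPKM in *Δdella* and 39.1 FPKM in WT seeds, and PIP1;2 had 308 FPKM in *Δdella* and 165 FPKM in WT seeds. Of the 10, 8 had *Δdella* values above all WT values over the 5 media, against 18.4% of all genes. Among tonoplast aquaporins, the 4 considered of 10 were all called, TIP3;1 and TIP3;2 lower as given above, and TIP4;1 and TIP1;1 higher with 3.30 and 1.5 FPKM in *Δdella* seeds against 0.657 and 0.0675 FPKM in WT seeds. That list's median of −1.04 therefore stands between opposite differences, and it turned to 0.63 with no filter on low values.

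The GASA genes, small secreted peptides often controlled by GA, also differed in both directions. GASA14 had 245 FPKM in *Δdella* and 79.0 FPKM in WT seeds, and GASA4 had 537 FPKM in *Δdella* and 264 FPKM in WT seeds, log2 differences of 1.62 and 1.02, the second of which became 0.94 at an equal FPKM sum. GASA3 had 2.01 FPKM in *Δdella* and 23.7 FPKM in WT seeds, and GASA2, its neighbour on chromosome 4, had 0.379 FPKM in *Δdella* and 2.57 FPKM in WT seeds, differences of −3.04 and −1.37. GASA6, the most abundant, had 1143 FPKM in *Δdella* and 1331 FPKM in WT seeds. GASA14 and GASA4 were above WT on all 5 media, whereas GASA3 and GASA2 overlapped.

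No gene of reserve mobilisation was called. None of 11 storage lipid breakdown genes and none of 7 genes of the glyoxylate cycle and gluconeogenesis was called, with medians of −0.11 and −0.15. With 6.5% of all genes considered called, few calls or none would be usual among so few genes. ICL, isocitrate lyase of the glyoxylate cycle, had 9490.4 FPKM in *Δdella* and 9589 FPKM in WT seeds, among the highest values named here. Nuclear photosynthesis genes had 4 of 19 called higher, against 4.22% of all genes considered, and a median of 0.12. On the other media this median was below 0, at −0.31 on MS, −0.43 on PAC, −0.45 on PAC with GA and −0.11 on extract with GA. RBCS3B and RBCS2B, small subunits of Rubisco and neighbours of like sequence, had 243 and 57.9 FPKM in *Δdella* seeds against 103 and 27.2 FPKM in WT seeds, while RBCS1A had 1231 FPKM in *Δdella* and 1153 FPKM in WT seeds. The call of RBCS2B ended at an equal FPKM sum, with a log2 difference of 0.98. The antenna genes LHCB1.3 and LHCA2 had 16.6 and 7.35 FPKM in *Δdella* seeds against 6.61 and 2.96 FPKM in WT seeds. Of these 4 genes, LHCA2 overlapped between genotypes over the 5 media and the other 3 did not. Of all genes considered, 18.4% had *Δdella* values above all WT values.

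Of 7 genes of karrikin signalling, a pathway by which smoke compounds promote germination, 1 was called higher, against 4.22% of all genes considered. It was KUF1, with 4.55 FPKM in *Δdella* and 1.73 FPKM in WT seeds. Its log2 difference of 1.02 became 0.96 at an equal FPKM sum in each group, which ends the call. On MS the KUF1 difference was 0.25, and its values overlapped between the genotypes over the 5 media. BBX20, a light-signalling gene that responds to karrikins, was not called, with 10.7 FPKM in *Δdella* and 5.23 FPKM in WT seeds, a log2 difference of 0.90. Of 9 immune response genes 1 was considered, WRKY33, with 5.11 FPKM in *Δdella* and 2.96 FPKM in WT seeds, so the other 8 were under 1 FPKM in both genotypes on an extract of bacterial origin. Among 8 xenobiotic and oxidative stress genes, 2 were higher and 1 lower, against 4.22% and 2.28% of all genes considered. AOX1A, the stress-inducible alternative oxidase of mitochondria, had 16.0 FPKM in *Δdella* and 2.21 FPKM in WT seeds, a log2 difference of 2.40. The glutathione transferase gene GSTU25 had 15.9 FPKM in *Δdella* and 5.28 FPKM in WT seeds, and GSTF7 had 5.49 FPKM in *Δdella* and 17.37 FPKM in WT seeds.

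**Figure D4:**
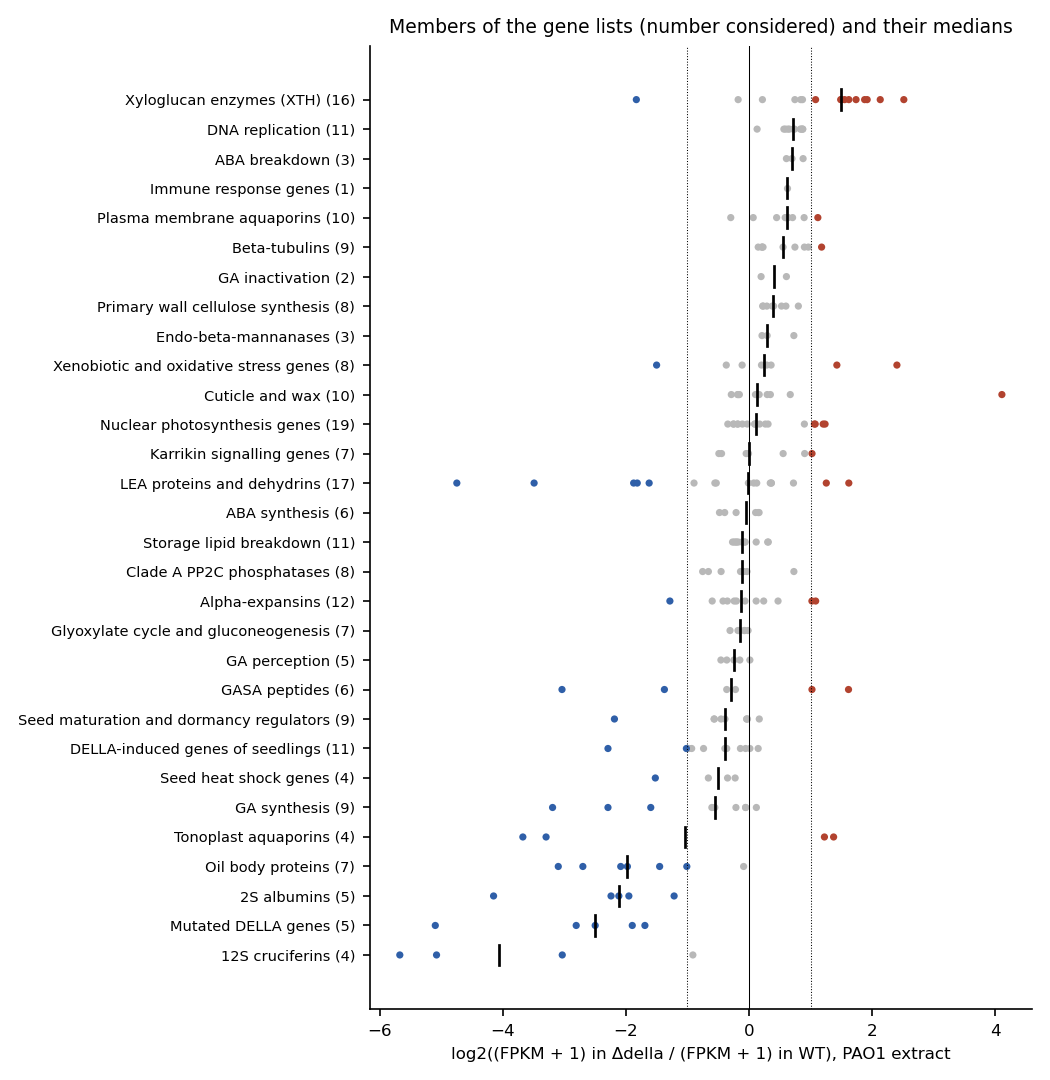
Log2 difference between *Δdella* and WT seeds on extract, with 1 added to the FPKM values (horizontal axis), for each considered gene of the gene lists (rows), with the median of each list and dotted lines at the 2-fold limits of −1 and 1. Cruciferins (median −4.06), 2S albumins (−2.11) and oil body genes (−1.98) lie to the left and XTH genes (1.5) to the right.

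Over the 30 lists, 302 genes in all, 5 had a median of −1 or less and 1 a median of 1 or more, and 11 had no gene called. The 5 are the mutated DELLA genes, cruciferins, 2S albumins, oil body proteins and tonoplast aquaporins. The median of all genes considered was −0.02.

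Outside the lists, some of the widest differences lay in genes with little RNA in 1 genotype on every medium. AT1G24370, annotated as a pseudogene, had 148 FPKM in *Δdella* and 0.221 FPKM in WT seeds on extract, and its neighbour AT1G24388 had 338 FPKM in *Δdella* and 0.683 FPKM in WT seeds, log2 differences of 6.93 and 7.65. AT1G24388 shares its locus with AT1G24390, so reads may be shared between them. ENODL9, an early nodulin-like gene whose locus also holds another gene, had 18.6 FPKM in *Δdella* and 0.081 FPKM in WT seeds. In the other direction, AT4G07825 had 0.0188 FPKM in *Δdella* and 49.6 FPKM in WT seeds, AT4G04692, a transcribed pseudogene, had 0.0577 FPKM in *Δdella* and 42.0 FPKM in WT seeds, and AT3G01345 had 3.59 FPKM in *Δdella* and 158 FPKM in WT seeds, log2 differences of −5.63, −5.34 and −5.12. On MS the differences of AT1G24370, AT4G07825 and AT3G01345 were 6.74, −5.62 and −5.23, close to those on extract.

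Other protein-coding genes with wide differences towards higher values in *Δdella* seeds had RNA in both genotypes. AT5G26260 had 56.9 FPKM in *Δdella* and 3.21 FPKM in WT seeds on extract, a log2 difference of 3.78. ATPMEPCRB, a pectin methylesterase gene, had 39.0 FPKM in *Δdella* and 2.72 FPKM in WT seeds, and AT4G23670 had 16.8 FPKM in *Δdella* and 0.629 FPKM in WT seeds, differences of 3.43 and 3.45. All 3 were above WT on all 5 media and, like CER1, differed most on PAC, where AT5G26260 had 63.1 FPKM in *Δdella* and 0.2 FPKM in WT seeds.

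Most differences on extract were also there on media without extract. Of the 723 genes higher in *Δdella* seeds on extract, 481 were also higher by 2-fold on MS (66.5%), where 4.08% of 17122 genes were called higher, and 6 were lower by 2-fold. On PAC 565 were also higher (78.1%), against 9.86% of all genes, on PAC with GA 503 (69.6%), against 4.72%, and on extract with GA 358 (49.5%), against 2.74%. Of the 391 genes lower on extract, 227 were also lower on MS (58.1%), against 1.87% of all genes, 295 on PAC (75.4%), against 6%, 255 on PAC with GA (65.2%), against 2.58%, and 127 on extract with GA (32.5%), against 1.03%. These comparisons use different libraries, and whether these came from separate seed batches is not stated in the sources used here.

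The size of the differences also varied with the medium. The genes higher on extract had a median difference of 1.37 on extract, 1.21 on MS, 1.89 on PAC, 1.33 on PAC with GA and 1.00 on extract with GA. The genes lower on extract had medians of −1.51 on extract, −1.12 on MS, −1.92 on PAC, −1.27 on PAC with GA and −0.74 on extract with GA. The medians on extract itself follow from the choice of genes. Across protein-coding genes, differences on extract and on MS had a Pearson correlation of 0.869 over 16299 genes, which describes these libraries, as genes are not independent replicates. The correlations with PAC, PAC with GA, and extract with GA were 0.811, 0.877 and 0.845.

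A 2-fold difference in the same direction on all 5 media was seen for 282 genes higher (1.64%) and 99 genes lower (0.577%) in *Δdella* seeds. Of the genes called on extract, 599 of the 723 higher and 281 of the 391 lower had no overlap between the 5 *Δdella* and the 5 WT values, against 18.4% of all genes in each direction, and extract is 1 of the 5 media counted. By contrast, 83 of the higher and 62 of the lower genes differed by 2-fold on no other medium in that direction.

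A small set of genes differed by 2-fold between the genotypes on the media with extract and by less on the others. Among protein-coding genes of 300 bases or more, 18 were higher in *Δdella* seeds by 2-fold on both extract and extract with GA and on no other medium (0.109% of 16544), and 5 were lower (0.0302%). This set was picked for these values after they were seen, and the values below are a description. For the 18 genes the median difference was 1.70 on extract and 1.44 on extract with GA, against 0.25 on MS, 0.26 on PAC and 0.06 on PAC with GA. Some came close to 2-fold without extract, such as AT5G13880, with log2 differences of 0.83 on MS, 0.95 on PAC and 1.05 on extract. For AT5G13880, AT5G44580 and AT4G16024 the *Δdella* values lay above the WT values on all 5 media.

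Of these genes, AT2G41730 had the widest gap between the differences on extract and on MS. It had 36.5 FPKM in *Δdella* and 1.80 FPKM in WT seeds on extract. On extract with GA it had 40.5 FPKM in *Δdella* and 7.49 FPKM in WT seeds, and on MS 0.385 FPKM in *Δdella* and 0.905 FPKM in WT seeds. Its RNA was thus at a low level in both genotypes without extract. AT5G24640 was of the same kind, with 10.2 FPKM in *Δdella* and 0.912 FPKM in WT seeds on extract and 0.0882 FPKM in *Δdella* and 0.239 FPKM in WT seeds on MS. AT2G44130 had 15.6 FPKM in *Δdella* seeds on extract and 14.2 FPKM on extract with GA, and was listed at 0 in WT seeds there and in both genotypes on the other 3 media, but its locus overlaps another gene.

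Of the 18 genes, 7 that carry a gene symbol are described here, picked after their values were seen. SOT12, a sulfotransferase, had 31.3 FPKM in *Δdella* and 6.68 FPKM in WT seeds on extract, against 11.4 FPKM in *Δdella* and 7.40 FPKM in WT seeds on MS. GSTU9, a glutathione transferase, had 7.02 FPKM in *Δdella* and 1.22 FPKM in WT seeds on extract, and the monooxygenase gene MO1 had 5.89 FPKM in *Δdella* and 1.08 FPKM in WT seeds. ABCB11, of the ABC transporter family, had 5.41 FPKM in *Δdella* and 1.02 FPKM in WT seeds. CEJ1, a transcription factor gene of the DREB family, had 5.87 FPKM in *Δdella* and 0.557 FPKM in WT seeds, and the protein kinase gene AGC2-1 had 4.76 FPKM in *Δdella* and 0.573 FPKM in WT seeds. AOX1A, given above, belongs to this set too, with differences of 0.41 to 0.92 on the media without extract and with 17.59 FPKM in *Δdella* and 5.21 FPKM in WT seeds on extract with GA. The other 8 genes, which the file names by identifier only, had log2 differences of 1.01 to 1.38 on extract.

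**Figure D5:**
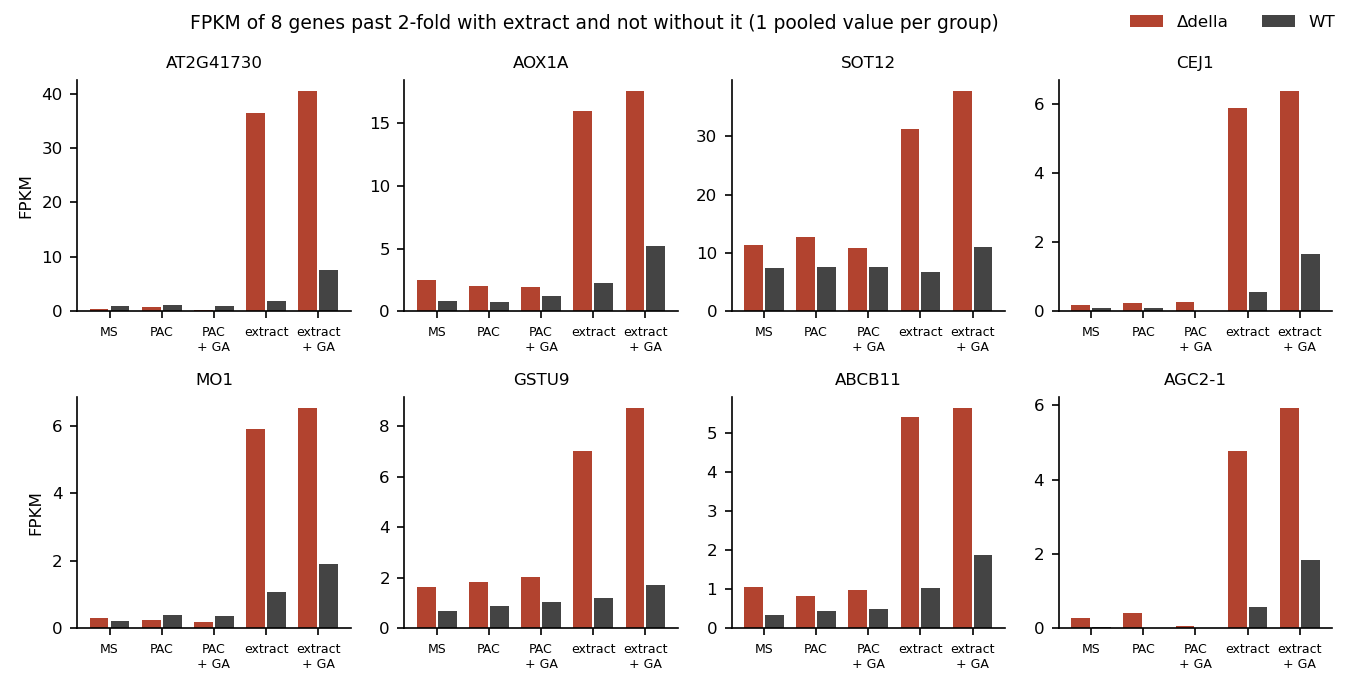
FPKM (vertical linear axes from 0, scaled per gene) of 8 genes with a 2-fold difference on the extract media only, with bars for *Δdella* (left) and WT (right) on MS, PAC, PAC with GA, extract, and extract with GA, 1 pooled value per bar. AT2G41730 stands at 36.5 and 40.5 FPKM in *Δdella* seeds on the extract media and at 0.73 FPKM or less on the other media.

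Set against MS within a genotype, these 18 genes had a median log2 difference between extract and MS of 1.63 in *Δdella* seeds and 0.44 in WT seeds, and 14 of them were higher by 2-fold on extract in *Δdella* seeds against 1 in WT seeds. The choice of genes favours such a pattern. Over all genes, 1.51% differed by 2-fold between extract and MS in *Δdella* seeds and 1.56% in WT seeds. Of the 5 genes lower on the extract media only, AT4G24130 had 1.59 FPKM in *Δdella* and 4.56 FPKM in WT seeds on extract. AT3G43340, AT4G05091 and AT1G64107 were listed at 0 in *Δdella* seeds and had 2.05, 2.02 and 1.45 FPKM in WT seeds. AT2G24945 had 0.0103 FPKM in *Δdella* and 7.58 FPKM in WT seeds on extract, while MAPR2, with which it shares a locus, had 14.0 FPKM in *Δdella* and 6.48 FPKM in WT seeds, so that reads of this locus may have been divided differently between both genes in different groups.

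Genes that differed on all 5 media were unevenly placed relative to the mutated loci. Among genes of 300 bases or more within 2 Mb of GAI, 41 of 799 differed by 2-fold on all 5 media (5.13%), and within 2 Mb of RGL1 23 of 578 did (3.98%). Near RGA it was 5 of 245 genes (2.04%), near RGL2 11 of 621 (1.77%) and near RGL3 11 of 766 (1.44%), against 285 of 13952 elsewhere (2.04%). On extract alone, 8.51% of genes near GAI and 8.3% of those near RGL1 were called. Near RGA 6.94% were called, near RGL3 5.61% and near RGL2 3.22%, against 5.95% of genes elsewhere. The part of DNA linked to the mutated loci in these differences was not tested.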

How the data were processed

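RNA from whole seeds was sequenced by the authors as single-end 50 bp reads from stranded mRNA libraries, mapped to TAIR10 with TopHat and quantified with Cuffdiff on Galaxy, replicates pooled. For tool versions, annotation release, Cuffdiff normalization and strand setting: not given in the sources used here. Deposited FPKM values from the authors, 1 per gene and group, were used as they are. The table's own fold changes, test statistics, p and q for 45 pairs of groups were not used. Groups came from sample titles and the table's group names; MS is called MOCK there.

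The difference was log2((FPKM + 1) ratio), *Δdella* over WT, among genes with at least 1 FPKM in 1 of the 2 groups, called at 2-fold. Members and gene lists were chosen with earlier results of these data known. Named genes are the mutated genes, the 12 widest differences each way, members of lists past 2-fold (the 4 widest where there are more; all storage protein genes and maturation regulators), and the 6 widest gaps between extract and MS each way. Further genes named (other list members, protein-coding extremes and genes of the extract media) were chosen after their values were seen. Gene lengths, types and upstream sequences came from RefSeq TAIR10.1 by locus tag (32809 of 33557 identifiers). Coordinates of genes are the file's, whose loci can span overlapping genes. The calling functions were tested on simulated data. Alternatives were the pseudocount, filter, scaling and fold size, and, chosen after seeing the data, gene length and type. Python 3.11.15, numpy 2.4.6, pandas 2.3.3 and matplotlib 3.10.9 were used.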

Additional observations from a re-analysis of the deposited data

Results flagged for a closer look

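For 5 genes the difference between *Δdella* and WT seeds pointed 1 way on extract and the opposite way on MS by wide margins, and whether these differences differ was not tested, since each group has 1 pooled value. They are genes of 73 to 102 bases, and each is listed at 0 in 1 genotype on each of these media. U60.2F, a small nucleolar RNA gene that shares its locus with another gene, had 209 FPKM in *Δdella* seeds on extract and was listed at 0 in WT seeds, whereas on MS it was listed at 0 in *Δdella* seeds and had 70.4 FPKM in WT seeds, a gap of 13.87 between log2 differences of 7.71 and −6.16. AT5G13225 had a gap of −13.72, between log2 differences of −6.30 on extract and 7.42 on MS. The gap was −11.24 for AT1G12015, −11.09 for AT2G17295 and −9.33 for AT4G23271. Of all genes under 300 bases, 46.6% were called on extract.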

How the results depend on the processing

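The values used pool replicates, so they give neither the spread between replicates nor leave-one-out values, and the test results in the deposited table were set aside. No paired analysis was possible because the deposited columns carry no replicate numbers. Depth is unknown, and low values have no stated precision. With other settings for pseudocount, filter, scaling, gene length and gene type, the count of genes higher in *Δdella* seeds on extract was 614 to 1046 (723 as reported), except 469 with at least 5 FPKM in 1 of the 2 groups. The count of genes lower was 287 to 435 (391 as reported), except 595 with a pseudocount of 0.1. At 1.5-fold there were 1632 higher, 1013 lower and 1703 shared in direction with MS, and at 4-fold 142, 115 and 135, against 708 shared at 2-fold. Rescaling to an equal sum gave 631 higher and 435 lower and moved the median of all genes to −0.10, and rescaling by the median ratio gave 747 and 371. Leaving fold size aside, 29 of 30 list medians and 82 of 88 named genes kept their direction and side of the 2-fold limit in every setting that gave a value. The exceptions were the tonoplast aquaporin median (0.63 with no filter, −0.72 with a pseudocount of 0.1), CRU4 (−2.02 with a pseudocount of 0.1), EXPA11, GASA4, RBCS2B and KUF1 (0.94 to 0.98 at an equal sum) and AT4G19700 (−0.99 by the median ratio); the cause was not tested.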
